A study of Mus musculus with 14 samples.

Results

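This module holds the genes of intraflagellar transport, of the BBSome and of the factors that regulate the cilium. It was read in ductal cells and hepatocytes from injured mouse liver. Its members were chosen by name alone: every symbol made of Ift or Bbs and a number or beginning with Nphp or Tctn and a number, together with Foxj1, Rfx1, Rfx2, Rfx3, Kif3a, Kif3b, Kif17, Arl3, Arl6, Tmem67, Mks1, Cep290 and Rpgrip1l among other single names. The deposited table held 40 such genes among 20377 symbols. A symbol with several transcript rows, as 6 of the 40 had, was represented by the row of highest mean.

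The samples were cells sorted from livers of adult C57BL/6 chimeric mice in which mature hepatocytes bore a red fluorescent marker. All mice, those that gave the hepatocytes included, received DDC at 0.1%, a toxicant that blocks haem synthesis and provokes a ductular reaction, for 5 to 8 weeks, so no group was uninjured. Ductal cells were sorted as MIC1-1C3+, low in side scatter and negative for CD11b, CD26, CD31 and CD45. The mTomato+ fraction is labelled as derived from donor hepatocytes (5 libraries, numbered 219, 220, 225, 248 and 611). The mTomato-negative fraction is labelled as derived from host cholangiocytes (5 libraries, numbered 118, 219, 220, 225 and 611). The third group is hepatocytes of DDC-treated mice (4 libraries, numbered 118, 225, 248 and 611), of which the series' design text counts 3. Origin thus rests on 1 fluorescent marker, and any sorted cell that lacked it fell in the negative fraction. Exact ages are not given in the labels, nor is it stated whether a number names a mouse, so p-values measure the spread between these samples, which may be technical. Below, values of single libraries follow the order of the numbers given here.

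A primary cilium is a single microtubule-based antenna that stands on a basal body. Cholangiocytes carry one on the surface that faces the bile and use it to sense flow and osmolarity, whereas mature hepatocytes largely lack one. Its parts are made in the cell body and moved along the axoneme by trains of intraflagellar transport (IFT) proteins: kinesin-2 drives the IFT-B train towards the tip, a dynein with IFT-A brings it back, the BBSome rides on the trains as an adaptor for membrane cargo, and the transition zone at the base acts as a gate. RFX transcription factors switch on genes of this core machinery, while FOXJ1 is known as the regulator of the motile cilium programme.

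The table gives RPKM, read counts scaled to transcript length and to the library's mapped reads, and each library was estimated to rest on 22800000 to 32800000 reads. The labels were checked against marker genes. The summed RPKM of 9 biliary markers, all of them detected in each group, was 16970 to 19750 in hepatocyte-derived and 20540 to 22120 in cholangiocyte-derived ductal libraries against 635 to 1422 in hepatocytes. The median of the 9 group means was 85.3, 301.8 and 5.96 RPKM in these groups, so the ductal groups lay farther apart than their sums. That of 8 hepatocyte markers was 5690 to 10830, 3407 to 4789 and 47530 to 66650, so hepatocyte transcripts were present in both ductal groups. Transcripts of other cells stood out in 3 libraries: 12 macrophage markers summed to 1480 in hepatocyte library 118 against at most 41.6 in the other hepatocytes, and 9 stellate and fibroblast markers to 428 and 493 in cholangiocyte-derived libraries 118 and 220 against at most 85.3 in the others.

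The module was higher in both kinds of ductal cell than in hepatocytes. Of the 39 members tested, 38 passed as higher and 0 as lower in the hepatocyte-derived group, and 37 as higher and 1 as lower in the cholangiocyte-derived group (limma on log2(RPKM + 1), Benjamini-Hochberg adjusted p under 0.05 over 12638 symbols). The median difference was 1.68 and 1.81 on the log2 scale. The background must be read with these counts, because most genes were called in the same direction: in hepatocyte-derived ductal cells 66.2% of all tested symbols were higher and 14.8% lower, and 67.1% higher and 17.4% lower in cholangiocyte-derived ones, with medians of 0.67 and 0.76. At an unadjusted p under 0.05, 0 members were lower in the first comparison as well. Kif17 did not reach 1 RPKM in 4 libraries and was not tested. Another 8 members, Foxj1 and Rfx2 among them, reached that filter only with ductal libraries counted, so their calls against hepatocytes were partly set by it. Of the other 31, 30 and 29 were higher and 0 and 1 lower, beside 63.2% and 61.7% higher among symbols of that kind. Nphp4 was tested only because of its level in the cholangiocyte-derived libraries.

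The counts against hepatocytes depended on the scaling of the libraries. When the libraries were rescaled by median ratios, the median of all symbols moved to 0.02 and 0.06 and the background became nearly even, with 37.5% higher against 36.3% lower for the hepatocyte-derived group and 40.6% higher and 38.0% lower for the other. On that scale 32 members remained called higher in each comparison, while 3 and 4 were called lower, and the members' medians were 1.04 and 1.35. The members lower after rescaling were Ift20, Ift52 and Bbs7 in both comparisons and Ift46 in the second. Under quantile normalization 28 and 30 members were called higher and 4 and 6 lower, with medians of 0.605 and 0.989. Of all symbols 36.4% and 38.7% were then higher and 32.7% and 37.7% lower.

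**Figure D1:**
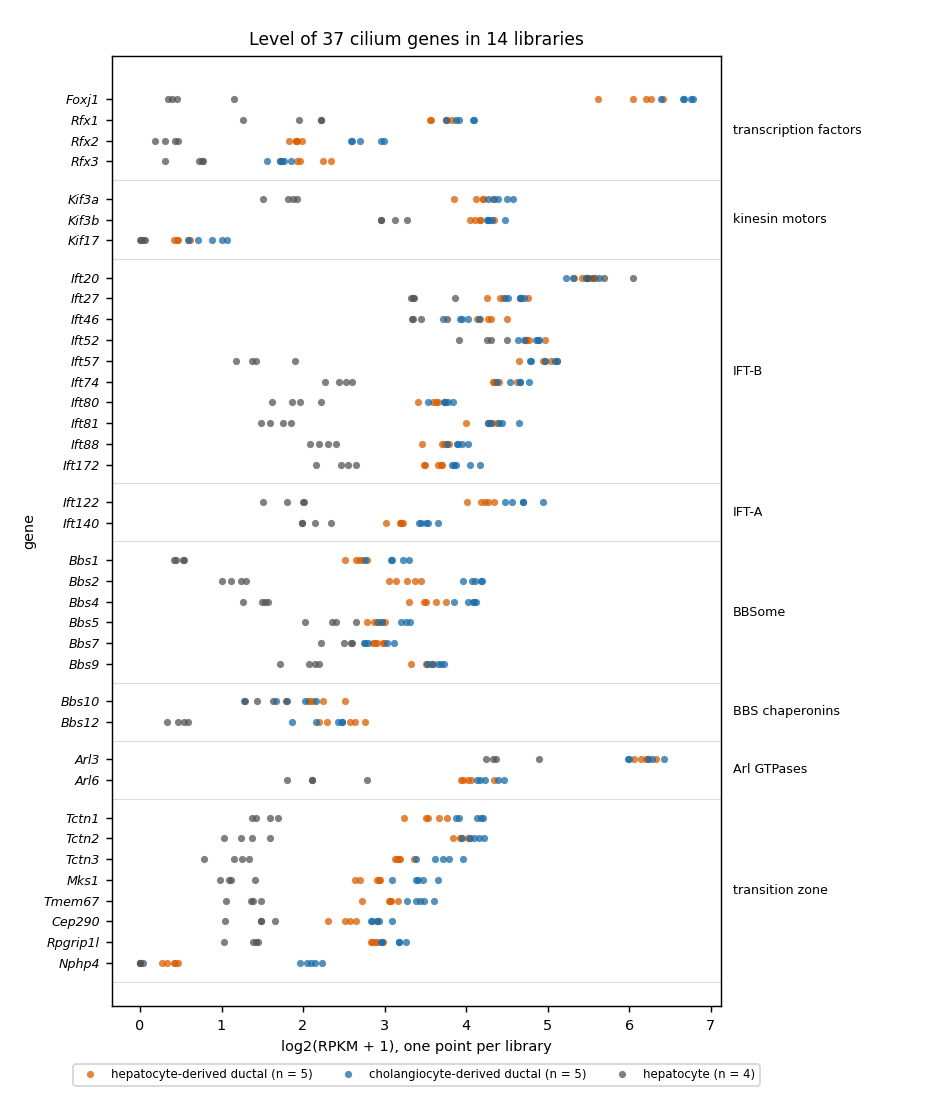
Level of 37 of the 40 genes, as log2(RPKM + 1) on the horizontal axis, with 1 point per library coloured by group and genes ordered by role. Hepatocyte points lie to the left of the ductal points except for Ift20, with all 3 groups between 36.6 and 65.1 RPKM, and for Ift46 and Bbs10, whose hepatocyte points overlap the cholangiocyte-derived ones.

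**Figure D2:**
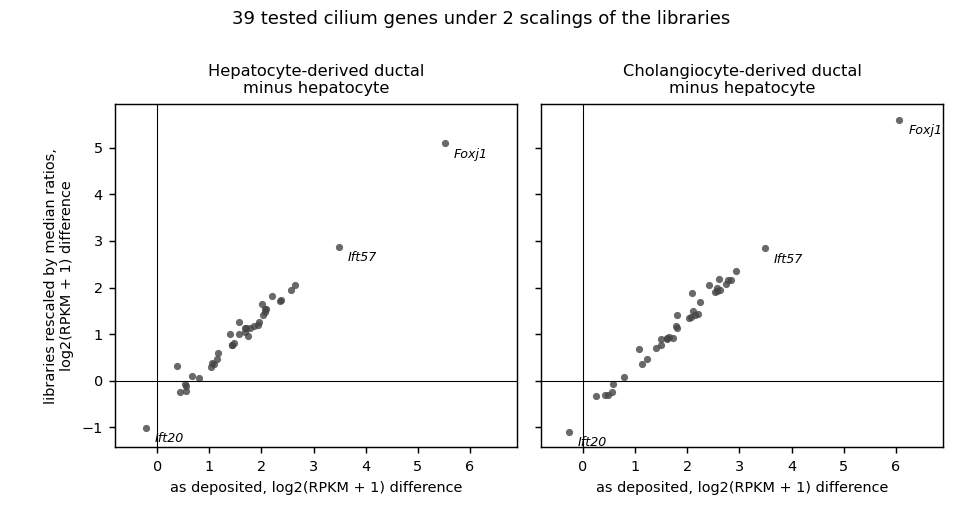
Difference from hepatocytes of the 39 tested genes, as deposited (horizontal axis) and after rescaling of the libraries by median ratios (vertical axis), both in log2(RPKM + 1). Foxj1 and Ift57 are far above 0 on both scales, while Ift20 is below 0 on both.

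Among the transcription factors, Foxj1 (chr11:116192018-116196668 on the minus strand of mm9) had the largest difference of the module. It stood at 84.05, 75.8, 65.1, 47.9 and 72.5 RPKM in the hepatocyte-derived ductal libraries, at 83.1, 109, 100.3, 101 and 107 in the cholangiocyte-derived ones and at 1.23, 0.27, 0.31 and 0.37 in hepatocytes. Every ductal library was far above every hepatocyte library, and among hepatocytes library 118, the one rich in macrophage transcripts, was the highest. The log2 difference from hepatocytes was 5.52 (SE 0.18) in hepatocyte-derived and 6.07 (SE 0.18) in cholangiocyte-derived ductal cells. Foxj1 reached the filter only with ductal libraries counted, so these 2 differences are given with no test. The hepatocyte-derived cells had less Foxj1 than the cholangiocyte-derived cells, 69.1 ± 13.7 against 100.3 ± 10.3 RPKM (SD, n = 5 each), and the ranges overlapped only through 1 library of each group (log2 difference -0.55, limma adjusted p = 0.0191). That last call was lost with the library number as a block (-0.45, adjusted p = 0.111) and with a pseudocount of 0.1 (adjusted p = 0.157).

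The RFX factors bind the X-box, a motif of ciliary promoters, and had higher RPKM in ductal cells than in hepatocytes, far below Foxj1. Rfx2 and Rfx3 reached the filter only with ductal libraries counted, so no test against hepatocytes is given for them. Rfx1 was called higher in both ductal groups, as deposited and after rescaling. Under quantile normalization Rfx3 was at 0.34 in hepatocyte-derived cells and turned to -0.26 in cholangiocyte-derived cells. Rfx2 (chr17:56915320-56970431 on the minus strand of mm9) stood at 2.79, 2.76, 2.95, 2.56 and 2.78 RPKM in the hepatocyte-derived ductal libraries, at 5.47, 5.06, 6.77, 6.93 and 5.01 in the cholangiocyte-derived ones and at 0.24, 0.35, 0.38 and 0.14 in hepatocytes. The groups did not overlap, with every hepatocyte-derived library below every cholangiocyte-derived one. The cholangiocyte-derived mean was 2.11-fold the hepatocyte-derived one (log2 difference -0.85, SE 0.097, adjusted p = 7.37e-06). Rfx3 had its larger mean in hepatocyte-derived cells and stood at 2.8, 2.3, 3.73, 4.08 and 2.9 RPKM in the hepatocyte-derived ductal libraries, at 1.95, 2.28, 2.35, 2.41 and 2.61 in the cholangiocyte-derived ones and at 0.24, 0.71, 0.7 and 0.65 in hepatocytes. Its 2 ductal groups overlapped, and the difference between them was 0.31 (95% interval 0.036 to 0.59, limma adjusted p = 0.0745). After rescaling it was not called either (0.32, adjusted p = 0.088). It was called higher in hepatocyte-derived cells under quantile normalization (0.60, adjusted p = 0.0134) and with library weights (0.46, adjusted p = 0.0012). The same held with a pseudocount of 5 and without hepatocyte-derived library 220 or hepatocyte library 118. Rfx1 stood at 12.5, 10.8, 12.6, 13.2 and 10.8 RPKM in the hepatocyte-derived ductal libraries, at 14.1, 13.7, 16.1, 12.5 and 15.9 in the cholangiocyte-derived ones and at 1.4, 2.85, 3.65 and 3.66 in hepatocytes. Rfx1 separated ductal cells from hepatocytes (1.78 and 2.03) while the 2 ductal groups overlapped (-0.25, 95% interval -0.58 to 0.085, adjusted p = 0.242).

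The members' promoters were searched for the X-box. RefSeq promoters of GRCm38.p6, each from 250 bases before to 50 bases after a gene's start, were given for 33 of the 40 members and were searched on both strands for the half-sites GTTNCC and GGNAAC, 0 to 3 bases apart, with the third base of the first or the fourth base of the second left free. Those not searched included Foxj1, Ift80, Ift81, Ift122 and Tmem67. A match was found in 9 of these 33 genes (27.3%), and in 2.68% of the 27025 genes of the table. The forkhead sequence GTAAACA was in 0 of the 33 and in 4.05% of all genes. The windows below show the matches in capitals on the gene's strand, 5′ to 3′; they are shown because these genes include the IFT-B member of largest difference (Ift57, with a pair of matches), the member that differed most between the 2 ductal groups (Nphp4), and 1 whose direction against hepatocytes depended on the scaling (Bbs7).
Ift57 chr16:49699167-49699286 (plus strand): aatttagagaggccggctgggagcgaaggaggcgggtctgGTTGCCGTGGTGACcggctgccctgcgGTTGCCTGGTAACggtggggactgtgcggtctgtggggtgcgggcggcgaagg
Nphp4 chr4:152477892-152477964 (plus strand): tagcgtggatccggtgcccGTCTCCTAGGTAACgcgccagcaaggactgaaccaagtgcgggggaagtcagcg
Tctn2 chr5:124598647-124598740 (plus strand): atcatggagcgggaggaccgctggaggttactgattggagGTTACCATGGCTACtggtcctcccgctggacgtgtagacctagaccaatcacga
Tctn3 chr19:40612319-40612411 (minus strand): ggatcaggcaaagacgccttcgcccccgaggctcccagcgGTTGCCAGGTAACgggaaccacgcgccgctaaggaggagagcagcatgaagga
Mks1 chr11:87853151-87853214 (plus strand): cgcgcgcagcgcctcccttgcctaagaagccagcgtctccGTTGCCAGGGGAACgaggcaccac
Bbs7 chr3:36613457-36613550 (minus strand): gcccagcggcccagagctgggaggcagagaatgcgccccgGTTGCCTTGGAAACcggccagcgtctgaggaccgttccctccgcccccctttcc
The first base of the match lies 87 and 60 bases upstream of the start in Ift57, 231 in Nphp4 (in 1 of its 3 listed promoters), 62 in Tctn2, 140 in Tctn3, 24 in Mks1 and 121 in Bbs7. In Tctn1, Bbs4 and Bbs1 the match lies after the start and is given alone.
Tctn1 chr5:122264411-122264424 (minus strand): GTTGCCCGGGCAAC
Bbs4 chr9:59353472-59353485 (minus strand): GTCGCCCGGGAAAC
Bbs1 chr19:4906613-4906626 (minus strand): GTTGCCAAGGCGAC
The log2 difference of the 9 genes with a match ranged from 0.37 to 3.48 in hepatocyte-derived ductal cells against hepatocytes, with a median of 2.07, and that of the 23 tested genes whose promoter held no match from -0.22 to 2.36, with a median of 1.44. Between the ductal groups the medians were -0.49 and -0.19. The ranges overlapped, no test was made, and a match is a string of letters, not a measured binding site.

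The kinesin-2 motor subunits Kif3a and Kif3b, which pull IFT trains outwards, were both higher in ductal cells. Kif3a stood at 17.4, 13.4, 16.3, 17.4 and 19.1 RPKM in the hepatocyte-derived ductal libraries, at 18.3, 21.6, 20.0, 22.8 and 19.4 in the cholangiocyte-derived ones and at 1.84, 2.79, 2.68 and 2.53 in hepatocytes. Ductal and hepatocyte libraries were widely apart, and the 2 ductal groups overlapped (-0.28, 95% interval -0.50 to -0.054, adjusted p = 0.051). Kif3b differed less, by 1.09 and 1.24 against 2.36 and 2.63 for Kif3a, at 7.48 ± 0.916 RPKM in hepatocytes (SD, n = 4). Kif17, a motor of certain sensory cilia, stood at 0.38, 0.52, 0.37, 0.53 and 0.33 RPKM in the hepatocyte-derived ductal libraries, at 0.64, 0.85, 1.01, 0.51 and 1.09 in the cholangiocyte-derived ones and at 0, 0.01, 0.04 and 0.03 in hepatocytes. It was near 0 in hepatocytes and under 1.1 RPKM everywhere, too low for the test.

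The IFT-B members, which build the outward train, differed from hepatocytes by -0.22 to 3.48 in hepatocyte-derived cells. Ift57 (chr16:49699407-49765239 on the plus strand of mm9), a peripheral IFT-B subunit, stood at 33.8, 24.1, 30.4, 29.8 and 31.99 RPKM in the hepatocyte-derived ductal libraries, at 26.6, 33.1, 26.9, 33.6 and 30.3 in the cholangiocyte-derived ones and at 2.72, 1.6, 1.67 and 1.27 in hepatocytes. The ductal groups overlapped almost wholly and every ductal library was above every hepatocyte library. Its means were 16.5 and 16.6 times the hepatocyte mean, and the difference between the ductal groups was -0.006 (95% interval -0.28 to 0.27). Ift81 (2.58 and 2.75) and Ift74 (1.96 and 2.15), which pair to bind tubulin, followed, then Ift80 (1.69 and 1.81) and Ift88 (1.44 and 1.66), a core subunit whose loss abolishes cilia. Ift27 and Ift52 rose by 1.04 and 0.55 in hepatocyte-derived cells as deposited, and after rescaling these values were 0.29 and -0.23.

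Ift20 (chr11:78349938-78354975 on the plus strand of mm9), an IFT-B subunit that also resides at the Golgi, went against the rest. It stood at 46.6, 43.2, 41.98, 39.1 and 46.9 RPKM in the hepatocyte-derived ductal libraries, at 38.6, 43.8, 36.5, 48.5 and 43.4 in the cholangiocyte-derived ones and at 65.1, 50.8, 44.04 and 45.8 in hepatocytes. All 3 groups overlapped, with the highest value in hepatocyte library 118. The log2 difference was -0.22 (adjusted p = 0.0871) in hepatocyte-derived and -0.27 (adjusted p = 0.0391) in cholangiocyte-derived ductal cells. The second value was not called with the library number as a block (-0.29, adjusted p = 0.0711), nor without hepatocyte library 118 (-0.15, adjusted p = 0.135), hepatocyte library 225, or cholangiocyte-derived library 118 or 220. After rescaling Ift20 was lower in both ductal groups (-1.01 and -1.09).

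Between the ductal groups 1 IFT-B member was lower and 1 higher in hepatocyte-derived cells. Ift172, the largest IFT-B subunit, stood at 11.6, 10.2, 12.01, 11.9 and 10.3 RPKM in the hepatocyte-derived ductal libraries, at 13.2, 13.7, 15.5, 13.5 and 17.1 in the cholangiocyte-derived ones and at 3.46, 4.53, 5.25 and 4.85 in hepatocytes. The 2 ductal groups did not overlap (log2 difference -0.35, SE 0.10, adjusted p = 0.0134). Ift46 (chr9:44581092-44600797 on the plus strand of mm9), known for carrying outer dynein arms on the train, stood at 21.6, 18.8, 18.3, 16.99 and 16.5 RPKM in the hepatocyte-derived ductal libraries, at 14.2, 16.8, 14.4, 15.3 and 12.2 in the cholangiocyte-derived ones and at 12.6, 9.16, 9.94 and 9.09 in hepatocytes. It was the only member called higher in hepatocyte-derived than in cholangiocyte-derived cells (0.32, SE 0.10, adjusted p = 0.027), and the ranges overlapped, the highest cholangiocyte-derived library lying above the lowest hepatocyte-derived one. That call was lost when any of 6 ductal libraries was left out (hepatocyte-derived 219, 220 or 225, cholangiocyte-derived 118, 220 or 611, adjusted p 0.0502 to 0.0763).

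Both IFT-A members, which serve the return of the train and the entry of membrane proteins, were lower in hepatocyte-derived than in cholangiocyte-derived ductal cells. Ift122 (chr6:115803546-115876717 on the plus strand of mm9) stood at 17.8, 15.1, 18.2, 19.3 and 17.2 RPKM in the hepatocyte-derived ductal libraries, at 21.2, 22.6, 24.9, 24.99 and 29.9 in the cholangiocyte-derived ones and at 2.48, 3.00, 3.04 and 1.84 in hepatocytes. The 3 groups did not overlap. The difference between the ductal groups was -0.47 (SE 0.11, adjusted p = 0.00435), beside 2.38 and 2.85 against hepatocytes. Ift140 was lower by the same test, with -0.34 (adjusted p = 0.00453), at 8.004 ± 0.522 against 10.4 ± 0.755 RPKM (SD, n = 5 each); it shares part of its span with Tmem204 on the other strand (mean 2.61 RPKM), and an unstranded library cannot separate them; Ift74 has such a partner at 0.06 RPKM.

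The BBSome subunits fell into those close to the hepatocyte level and those far from it. Bbs2 (chr8:96591854-96622711 on the minus strand of mm9), a propeller subunit of the complex, stood at 8.72, 7.28, 9.33, 7.81 and 9.86 RPKM in the hepatocyte-derived ductal libraries, at 14.6, 16.2, 15.8, 17.4 and 17.1 in the cholangiocyte-derived ones and at 1.16, 1.37, 1.47 and 1.00 in hepatocytes. The 3 groups did not overlap, and the cholangiocyte-derived mean was 1.88-fold the hepatocyte-derived one (-0.85, SE 0.091, adjusted p = 4.19e-06). Bbs1, which binds ARL6, stood at 5.91, 4.71, 5.63, 5.45 and 5.29 RPKM in the hepatocyte-derived ductal libraries, at 5.75, 7.44, 8.38, 7.49 and 8.83 in the cholangiocyte-derived ones and at 0.33, 0.36, 0.44 and 0.46 in hepatocytes. The ductal groups met at their edges, with cholangiocyte-derived library 118 inside the hepatocyte-derived range (-0.41, SE 0.098, adjusted p = 0.00398). Bbs4 was lower as well (-0.50, adjusted p = 0.000747). Bbs7, Bbs5 and Bbs9 were not called between the ductal groups, and Bbs7 stood at 6.88, 6.94, 6.47, 6.23 and 6.35 RPKM in the hepatocyte-derived ductal libraries, at 5.73, 7.2, 5.92, 7.66 and 5.8 in the cholangiocyte-derived ones and at 3.64, 5.04, 4.68 and 5.03 in hepatocytes. Bbs7 was thus already at 4.598 ± 0.66 RPKM in hepatocytes (SD, n = 4), and its difference of 0.44 as deposited became -0.24 after rescaling; Bbs5 likewise went from 0.55 to -0.12. The direction of these 2 subunits against hepatocytes therefore depended on the scaling, while Bbs1, Bbs2, Bbs4 and Bbs9 stayed higher.

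Bbs10 and Bbs12 are chaperonin-like proteins that help assemble the BBSome. Bbs12 reached the filter only with ductal libraries counted, so no test against hepatocytes is given for it. Bbs10 stood at 4.69, 3.37, 3.72, 3.25 and 3.17 RPKM in the hepatocyte-derived ductal libraries, at 1.43, 3.47, 2.5, 3.06 and 2.19 in the cholangiocyte-derived ones and at 2.09, 2.47, 1.71 and 1.44 in hepatocytes. It was called higher in hepatocyte-derived cells (0.67, adjusted p = 0.00195) but not in cholangiocyte-derived ones (0.25, adjusted p = 0.172), and the difference between the ductal groups was not called (0.42, 95% interval 0.078 to 0.75, adjusted p = 0.053). Without cholangiocyte-derived library 118, the lowest, the second call was made (0.38, adjusted p = 0.026), and after rescaling the first was lost (0.092, adjusted p = 0.611), while Bbs10 was then called higher in hepatocyte-derived than in cholangiocyte-derived cells (0.42, adjusted p = 0.0366). In cholangiocyte-derived cells against hepatocytes its direction turned, to -0.33 after rescaling (adjusted p = 0.0653) and -1.06 under quantile normalization, where it was called lower (adjusted p = 5.27e-05). Bbs12 stood at 5.2, 3.6, 4.98, 3.91 and 5.8 RPKM in the hepatocyte-derived ductal libraries, at 2.64, 4.58, 3.45, 4.56 and 4.39 in the cholangiocyte-derived ones and at 0.26, 0.51, 0.38 and 0.45 in hepatocytes. Bbs12 was low in hepatocytes and overlapped between the ductal groups (0.21, 95% interval -0.083 to 0.51).

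The ARL GTPases include ARL6, which recruits the BBSome, and ARL3, which releases lipidated cargo inside the cilium. All 3 were called higher in each ductal group than in hepatocytes, beside 66.2% and 67.1% of all tested symbols. After rescaling all 3 were higher too, beside 37.5% and 40.6%. None was called between the ductal groups in the reported fit. With library weights 2 were lower in hepatocyte-derived cells, beside 3924 of all 12638 symbols. Arl3 was, with Foxj1, one of the 2 members of highest RPKM in ductal cells and stood at 79.4, 72.6, 65.4, 69.5 and 74.0 RPKM in the hepatocyte-derived ductal libraries, at 62.5, 85.1, 62.99, 76.8 and 74.3 in the cholangiocyte-derived ones and at 28.8, 19.1, 17.9 and 19.7 in hepatocytes. The ductal groups overlapped throughout (0.004, 95% interval -0.26 to 0.27). Arl6 stood at 15.6, 15.3, 14.6, 14.4 and 19.2 RPKM in the hepatocyte-derived ductal libraries, at 17.02, 20.03, 16.5, 20.99 and 17.7 in the cholangiocyte-derived ones and at 5.89, 3.32, 3.32 and 2.5 in hepatocytes. The ductal groups again overlapped (-0.21, 95% interval -0.53 to 0.11).

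All 10 transition zone members were higher in both ductal groups than in hepatocytes as deposited, beside 66.2% and 67.1% of all tested symbols. After rescaling 9 were higher in each, beside 37.5% and 40.6%. Under quantile normalization 7 and 8 were higher and 1 lower in each, beside 36.4% and 38.7% higher. Of the 10, 3 reached the filter only with ductal libraries counted, and the other 7 were all higher as deposited. Tctn2, one of the tectonic proteins of the gate, had the largest difference and stood at 15.4, 13.3, 15.3, 14.2 and 14.3 RPKM in the hepatocyte-derived ductal libraries, at 14.5, 16.8, 15.6, 17.6 and 16.1 in the cholangiocyte-derived ones and at 2.02, 1.37, 1.6 and 1.05 in hepatocytes. The ductal groups overlapped, far above the hepatocytes (2.64 and 2.78). Nphp4 apart, 5 of 9 were lower in hepatocyte-derived than in cholangiocyte-derived cells, among them Mks1 (-0.58), Tctn1 (-0.52), Tctn3 (-0.49) and Tmem67 (-0.42). With the library number as a block Cep290 (-0.36, adjusted p = 0.0455) and Rpgrip1l (-0.31, adjusted p = 0.0264) were called as well. Tctn1 and Cep290 overlap genes on the other strand, Hvcn1 and 4930430F08Rik, with means of 8.61 and 5.58 RPKM, and unstranded reads of such pairs cannot be told apart.

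Nphp4 (chr4:151852251-151937293 on the plus strand of mm9), a transition zone protein mutated in nephronophthisis, had the largest gap between the ductal populations. It passed the filter only through the group where it is high, so the gap is given as a description with no test. It stood at 0.35, 0.33, 0.21, 0.26 and 0.38 RPKM in the hepatocyte-derived ductal libraries, at 3.29, 3.15, 3.44, 2.91 and 3.68 in the cholangiocyte-derived ones and at 0.03, 0, 0 and 0 in hepatocytes. Every cholangiocyte-derived library was above every hepatocyte-derived one by a wide margin, the hepatocyte-derived libraries were low but above the hepatocytes, and 3 hepatocyte libraries were listed at 0. The cholangiocyte-derived mean was 10.8-fold the hepatocyte-derived one, 3.29 ± 0.291 against 0.306 ± 0.0695 RPKM (SD, n = 5 each; log2 difference -1.72). On the log2(RPKM + 1) scale that difference is understated, and the hepatocyte-derived values rest on about 32 to 45 reads per library.

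**Figure D3:**
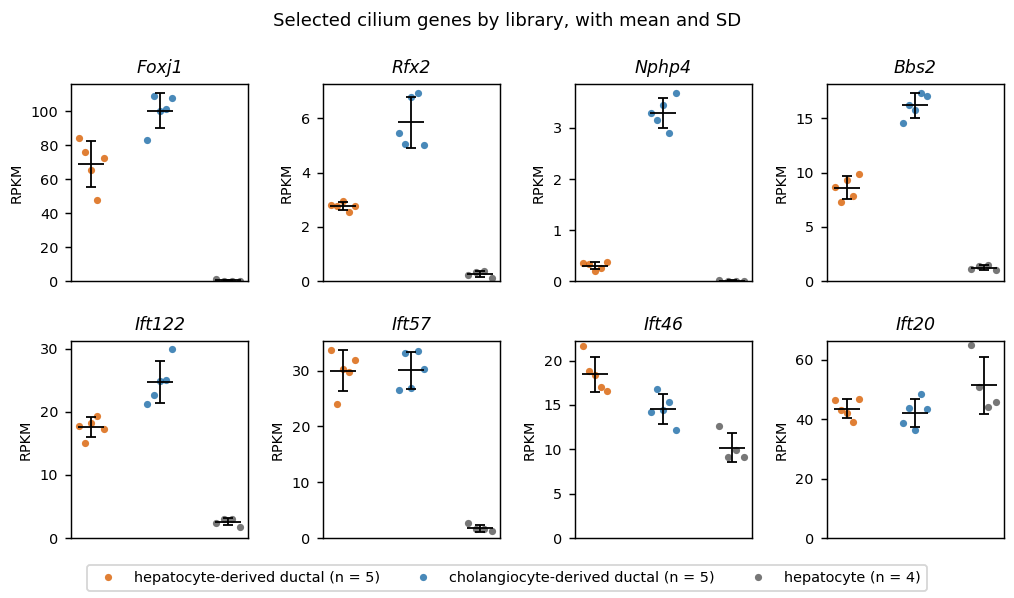
RPKM of 8 members in every library (points, coloured by group), with the mean and SD of each group in black; each vertical axis starts at 0. Rfx2, Nphp4, Bbs2 and Ift122 show 2 ductal groups that do not overlap, Ift57 shows 2 that overlap, Ift46 is shifted up in hepatocyte-derived cells, and Ift20 overlaps in all groups.

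Set side by side, the 2 ductal populations differed in part of the module. Of the 39 tested members, 14 were called lower and 1 higher in hepatocyte-derived cells, beside 21.0% of all tested symbols lower and 15.1% higher. Of the 38 that reach the filter also without the cholangiocyte-derived libraries, thus without Nphp4, 13 were lower (34.2%) and 1 higher, beside 17.8% and 16.0% of symbols of that kind, and the median difference was -0.21 beside -0.01. With no filter on low values, 15 of 40 were lower (37.5%) and 1 higher, beside 19.7% and 11.9%. By role and without Nphp4, the lower calls were 2 of 4 transcription factors, 1 of 10 IFT-B, both IFT-A, 3 of 6 BBSome and 5 of 9 transition zone members, with 0 of 2 kinesins, 0 of 2 chaperonins and 0 of 3 ARL GTPases. With Nphp4 counted, there were after rescaling 14 lower and 2 higher, Ift46 and Bbs10 (background 18.9% and 17.0%). With the library number as a block the counts were 14 and 1. In bulk RNA of sorted cells, fewer ciliated cells and less RNA of these genes per cell cannot be told apart.

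Other cell types also differed between these 2 groups. The 9 stellate and fibroblast markers, none of them at 0 throughout a group, summed to 8.35 to 27.5 RPKM in hepatocyte-derived and 35.4 to 493 in cholangiocyte-derived libraries, and the 4 mesothelial markers, nearly all of it Msln, to 1.2 to 3.97 and 46.6 to 127. The defining mesothelial markers Upk3b, Upk1b and Wt1 were at 1.33 RPKM or less in every library. Upk3b and Upk1b were still higher in cholangiocyte-derived libraries, with no overlap between the ductal groups. Their means were 0.168 against 1.04 and 0.036 against 0.44 RPKM in hepatocyte-derived and cholangiocyte-derived libraries, while Wt1 overlapped (0.546 against 0.496). Of the 8 hepatocyte markers, 5 were called higher in hepatocyte-derived cells and 0 lower, with differences from -0.90 to 2.33. Of the 9 biliary markers, 5 were called lower in hepatocyte-derived cells and 0 higher, with differences from -4.06 to -0.086 and a median of -2.06. Without the 3 libraries rich in other cells' transcripts, 18 members were lower and 1 higher, beside 2844 lower and 1835 higher of all 12638 tested symbols. With all libraries the counts over all symbols were 2657 and 1913. The part of the remaining marker differences in the members' differences was not tested.

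Measured against the distance between hepatocytes and cholangiocyte-derived cells, the hepatocyte-derived mean lay at a median of 87.8% of the way for the 32 members whose 2 outer groups differed by at least 1 on the log2 scale, beside 85.8% for all 5055 symbols of that kind. The median was 91.8% for 7 IFT-B, 82.4% for 4 BBSome and 80.2% for 9 transition zone members. Nphp4 lay lowest, at 17.8%, and Rfx3 highest, at 129%. These shares describe the group means and carry no test. The spread between libraries of a group was of similar size for the members and for other genes: the median coefficient of variation of members at 5 RPKM or more was 9.32%, 10.5% and 17.5% in hepatocyte-derived, cholangiocyte-derived and hepatocyte libraries, beside 9.57%, 9.56% and 17.0% for all such symbols.

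**Figure D4:**
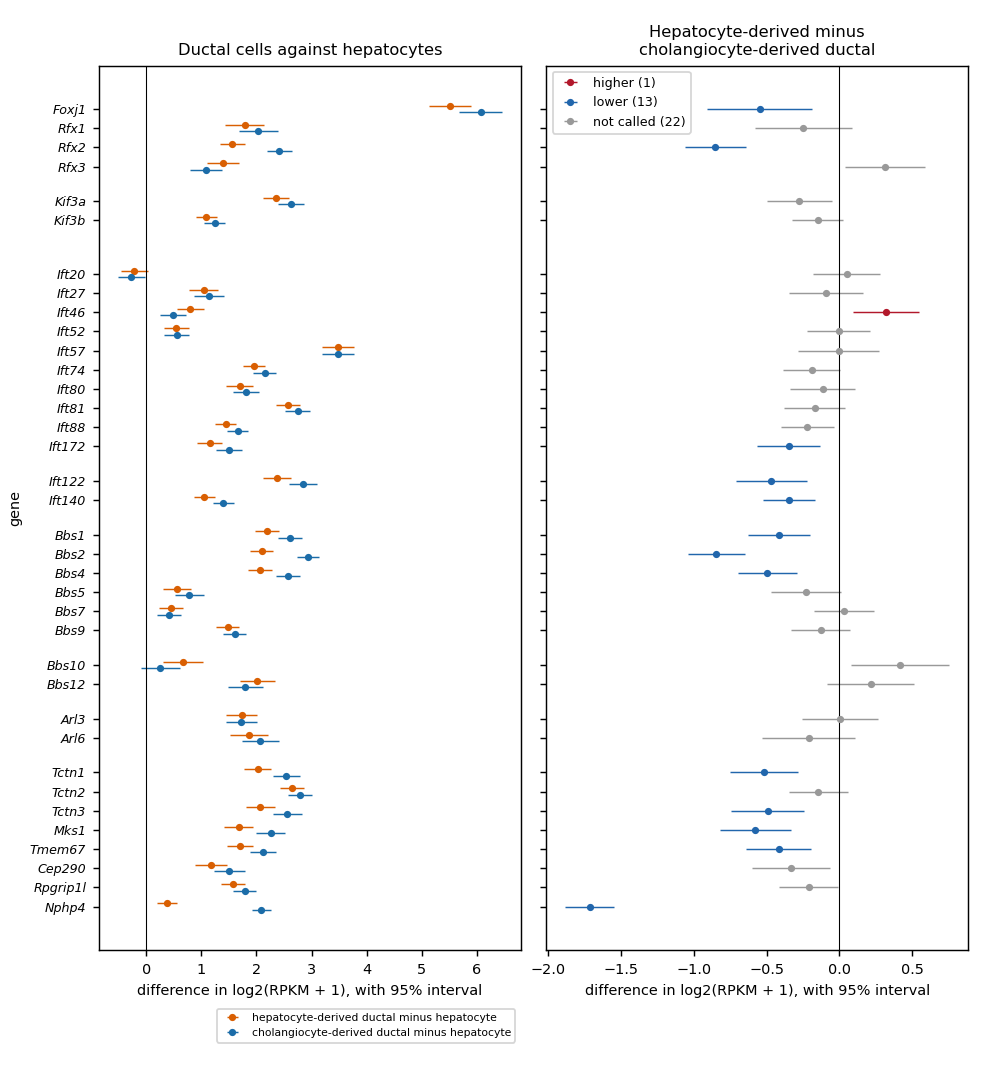
Differences in log2(RPKM + 1) with 95% intervals for 36 of the 39 tested genes: each ductal group minus hepatocytes on the left, and hepatocyte-derived minus cholangiocyte-derived ductal cells on the right. Colours mark the ductal group on the left and the call at adjusted p under 0.05 on the right. Intervals are not adjusted for the number of genes, so some that exclude 0 are not called; on the right Nphp4, tested only through its cholangiocyte-derived level, Rfx2 and Bbs2 lie farthest to the left and Ift46 is the 1 gene called higher.

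Genes of the same machinery outside the naming rule were read from fixed lists. Their counts stand beside 66.2% and 67.1% of all tested symbols higher in the 2 ductal groups than in hepatocytes (37.5% and 40.6% after rescaling, 36.4% and 38.7% under quantile normalization), and 21.0% lower and 15.1% higher between the ductal groups. Of 16 other IFT particle and IFT dynein genes tested, 16 were higher than in hepatocytes in each ductal group, and 4 were lower (25%, beside 21.0% of all symbols) and 0 higher in hepatocyte-derived than in cholangiocyte-derived cells. The genes of smallest adjusted p included Wdr35, an IFT-A subunit (2.34 and 2.55), Ttc26 (2.29 and 2.53) and the kinesin Kif3c (2.29 and 2.33). Dync2h1, the heavy chain of the dynein that brings trains back, was at 4.37 ± 0.232 against 6.34 ± 0.938 RPKM in the ductal groups (SD, n = 5 each; -0.44, adjusted p = 0.00224) and 0.407 ± 0.144 in hepatocytes (n = 4). Without the 3 libraries named above, 9 of the 16 were lower, beside 2844 of all 12638 tested symbols. After rescaling 14 and 15 of the 16 were called higher than in hepatocytes, and under quantile normalization 13 and 14, with 1 lower in the second. In hepatocytes 6 of the 16 did not reach the filter.

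Of 9 other BBSome genes and regulators, 6 and 7 were higher and 1 lower in the ductal groups, and 2 were lower between them (1 with the library number as a block, 3 without the 3 libraries). After rescaling these counts against hepatocytes were 4 higher and 3 lower in each, and under quantile normalization 4 and 4, then 4 and 3. The 2 lower between the ductal groups are 22.2% of the 9, beside 21.0% of all symbols. Mkks, a chaperonin-like partner of Bbs10 and Bbs12 named here after its values were seen, was the lower one (-0.40 and -0.55). Trim32 rose by 1.94 and 2.29 and was one of the 2 lower in hepatocyte-derived cells (-0.35, adjusted p = 0.00339). Sdccag8 (1.60 and 1.54), the BBSome subunit Ttc8 (1.48 and 1.59) and Rab3ip, which activates RAB8 at the cilium (1.12 and 1.26), were higher than in hepatocytes and not called between the ductal groups.

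Of 15 other transition zone and inversin compartment genes, all 15 were higher in each ductal group than in hepatocytes. Of the 15, 5 reached the filter only with ductal libraries counted, Tmem231 among them. The other 10 were all higher in each group, beside 63.2% and 61.7% of symbols of that kind. Between the ductal groups 6 of the 15 were lower and 2 higher in hepatocyte-derived cells (3 and 1 with the library number as a block). After rescaling 15 and 14 were called higher than in hepatocytes, and under quantile normalization 11 and 11, with 1 lower in the second. The 6 lower between the ductal groups are 40% of the list, beside 21.0% of all symbols. Tmem231, a transmembrane protein of the gate, was at 9.25 ± 1.04, 16.8 ± 0.76 and 0.15 ± 0.0983 RPKM in the 3 groups (SD, n = 5, 5 and 4), and the ductal groups did not overlap (-0.80, adjusted p = 3.45e-06). Anks6 (-0.81, adjusted p = 4.24e-06) and Tmem107 (-0.65, adjusted p = 0.000395) were lower too, and Tmem138 was not called (-0.18, 95% interval -0.37 to 0.008). The 2 higher genes, named after their values were seen, were Nek8 (0.38) and Invs (0.24), partners of ANKS6 in the inversin compartment; against hepatocytes Invs turned from 0.68 in cholangiocyte-derived cells to -0.04 after rescaling and -0.36 under quantile normalization.

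Of 11 basal body and distal appendage genes, 11 were higher in each ductal group (8 and 9 after rescaling, 7 and 7 with 1 lower under quantile normalization), and 4 were lower in hepatocyte-derived than in cholangiocyte-derived cells (36.4%, beside 21.0% of all symbols; 2 with the block), among them Odf2 (-0.51, adjusted p = 3.43e-05) and Fbf1 (-0.44, adjusted p = 0.00328). Ninl (3.42 and 3.25 against hepatocytes) and Ofd1 (1.35 and 1.39) were not called between the ductal groups. Of the 11, 2 reached the filter only with ductal libraries counted. The other 9 were all higher than in hepatocytes in each group, beside 63.2% and 61.7% of symbols of that kind. Of 11 genes of ciliary membrane lipids and lipidated cargo, 11 were higher in each ductal group (8 and 7 after rescaling, with 2 lower, and 9 and 9 under quantile normalization, with 1 lower). Here too 2 reached the filter only with ductal libraries counted, and the other 9 were all higher as deposited. Between the ductal groups 2 were lower (18.2%, below the 21.0% of all symbols; 1 with the block), of which Gpr161, named after its values were seen, reached the filter only through the cholangiocyte-derived libraries. Tulp3, an adaptor that brings membrane receptors into the cilium with IFT-A, was at 9.74 ± 0.986 against 20.3 ± 1.28 RPKM (SD, n = 5 each; -0.99, adjusted p = 1.82e-06), while the lipid phosphatase Inpp5e (0.013, 95% interval -0.13 to 0.16), Cys1 (0.086, -0.28 to 0.45) and Arl2 (-0.27, -0.59 to 0.048) were not called.

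Genes of motile cilia, which beat and which cholangiocytes are not known to carry, were read because Foxj1 is their known regulator. Of 39 in the table, 25 passed the filter, 23 of them only with ductal libraries counted and 10 only with cholangiocyte-derived ones, so the list was also read with no filter. Of the 38 genes then fitted, 28 were higher than in hepatocytes in hepatocyte-derived and 33 in cholangiocyte-derived cells with 0 lower in both, beside 52.3% and 57.1% of all symbols higher, and 26 were lower and 2 higher in hepatocyte-derived than in cholangiocyte-derived cells, beside 19.7% and 11.9%. Of the 25, all were higher than in hepatocytes (22 and 24 after rescaling, 15 and 19 under quantile normalization, with 2 and 1 lower), and 19 were lower and 2 higher between the ductal groups. Of the 15 that reach the filter also without the cholangiocyte-derived libraries, 10 were lower and 2 higher, beside 17.8% and 16.0% of such symbols, with a median difference of -0.86. The count of 19 lower was 19 with the block, 21 without the 3 libraries, 13 under quantile normalization and 19 to 20 when single libraries were left out. Rsph9, a radial spoke head protein, was at 13.002 ± 2.24, 33.4 ± 4.21 and 0.44 ± 0.478 RPKM in the 3 groups (SD, n = 5, 5 and 4; -1.30 between the ductal groups, adjusted p = 2.49e-05). Ccdc114, which docks outer dynein arms, was at 8.102 ± 0.872, 21.3 ± 2.42 and 0.352 ± 0.19 RPKM (-1.29, adjusted p = 3.06e-07). Ccdc113, one of the 10, was at 0.304 ± 0.0893 against 2.93 ± 0.234 RPKM (-1.59, given with no test), and Nme5 was at 15.5 ± 3.38 against 28.2 ± 3.42 (-0.84, adjusted p = 0.00132).

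Part of the motile list was nearly silent in both ductal groups. Of its 39 genes, 14 failed the filter, among them, named after their values were seen, the central pair gene Hydin at 0.016 and 0.054 RPKM on average, the dynein heavy chain Dnahc9 at 0.028 and 0.054, Sntn, listed at 0 in every library, and Spag16 at 0.014 and 0.122. The 2 genes higher in hepatocyte-derived cells were Tppp3 (1.05, 20.1 ± 4.28 against 9.08 ± 1.27 RPKM) and the dynein heavy chain Dnahc5 (0.77, 3.07 ± 0.818 against 1.38 ± 0.43). Dnajb13, also one of the 10, had the largest difference in the other direction (-1.97). Of 8 regulators of multiciliated cell fate, 3 passed the filter, the cell cycle factors E2f4, E2f5 and Tfdp1. Of these 3, 0 were called between the ductal groups (0 also at an unadjusted p under 0.05). With no filter on low values, 2 of the 8 were lower in hepatocyte-derived than in cholangiocyte-derived cells (25%) and 0 higher, beside 19.7% and 11.9% of all symbols. Against hepatocytes 4 and 5 of the 8 were then higher, beside 52.3% and 57.1%. The fate regulators Ccno, Myb, Foxn4 and Trp73, named after their values were seen, averaged at most 0.256 RPKM in each ductal group, beside 69.1 and 100.3 RPKM of Foxj1. The list's remaining fate regulator failed the filter and is not named here. It averaged above the named fate regulators in both ductal groups, since the medians of the 8 group means were 0.287 and 0.608 RPKM.

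**Figure D5:**
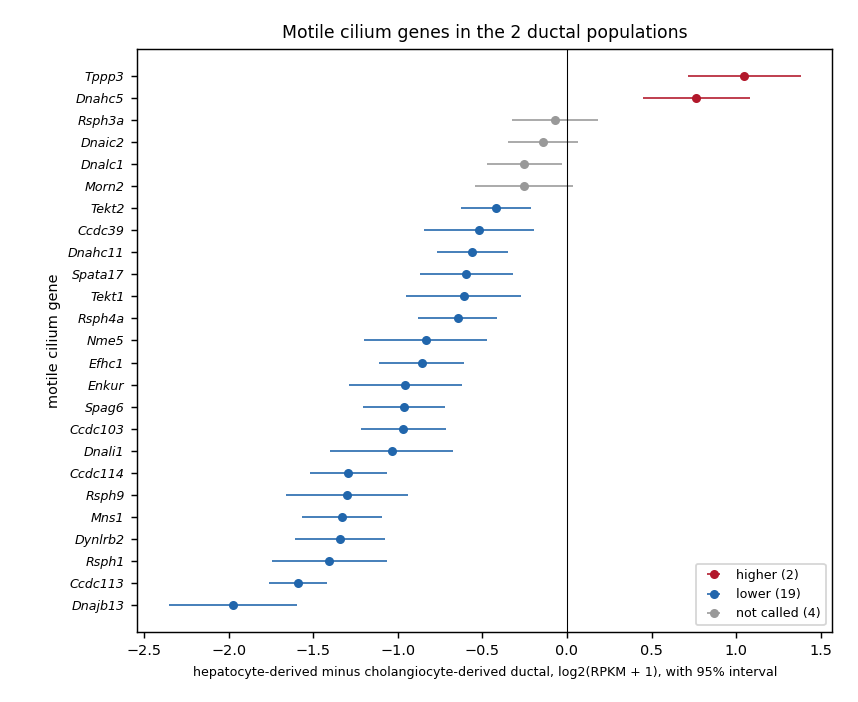
Difference between hepatocyte-derived and cholangiocyte-derived ductal cells in log2(RPKM + 1), with unadjusted 95% intervals, for the 25 motile cilium genes that passed the filter, 10 of them only through cholangiocyte-derived libraries, ordered by size and coloured by the call. Most points lie left of 0, from Dnajb13 at -1.97; Tppp3 and Dnahc5 lie to the right.

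Other RFX family genes and ciliary cofactors showed 0 calls between the ductal groups, and 0 at an unadjusted p under 0.05 (1 lower without the 3 libraries). Of 6 tested, 6 were higher than in hepatocytes in each group, beside 66.2% and 67.1% of all tested symbols. Of the 6, 2 reached the filter only with ductal libraries counted, Glis2 among them. The other 4 were all higher in each group, beside 63.2% and 61.7% of symbols of that kind. After rescaling 3 of the 6 were called higher in each, with 1 lower in the cholangiocyte-derived group. Under quantile normalization 3 were higher and 1 lower in each. Glis2, a zinc finger factor of the cilium mutated in nephronophthisis, was at 84.4 ± 14.1, 86.01 ± 7.48 and 0.752 ± 0.314 RPKM (SD, n = 5, 5 and 4; 5.61 and 5.65 against hepatocytes), and its relative Glis3 at 40.4 ± 5.97, 47.8 ± 7.16 and 2.95 ± 1.75 (3.52 and 3.76). Rfx7 differed by 1.71 and 1.94 and Rfxap, a cofactor of RFX5 in antigen presentation, by 0.58 and 0.44, the latter pair turning to -0.14 and -0.31 after rescaling and -0.29 and -0.53 under quantile normalization. The differences between ductal groups were -0.039 for Glis2 (95% interval -0.31 to 0.23) and -0.24 for Glis3 (-0.80 to 0.32).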

How the data were processed

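RNA from 14 libraries was sequenced, and the authors deposited 1 table of RPKM per transcript row, with reads mapped to mm9; CASAVA and Bowtie 0.12.7 are named in the submitters' processing notes. Counts were not used, so the depth was estimated from the steps between low values. All 14 columns were used: 12 matched a sample by number, and 2 (numbered 220, where titles read 120) matched by group only. Symbols that reached 1 RPKM in 4 or more libraries were tested with limma 3.58.1 (R 4.3.3) on log2(RPKM + 1), 1 fit over all 3 groups with no block, and Benjamini-Hochberg adjustment over 12638 symbols. The test was tried on simulated data first. Tables and figures used Python 3.11.15, pandas 2.3.3, numpy 2.4.6 and matplotlib 3.10.9.

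Genes that passed the filter only through 1 group are counted apart. Some members are counted but not reported by name here. The members and gene lists were chosen with earlier results of these data known. Values in every library are printed for the transcription factors, for the largest difference of each role and comparison, and for members that failed the filter or went against the majority; of each other list the 4 genes of smallest adjusted p were named, and others are said to be chosen later. Alternatives covered the scaling, pseudocount, filter, transcript rows, groups fitted, weights, block and left-out libraries. Same-numbered libraries deviated together between the ductal groups (correlations 0.797, 0.212 and 0.424 for 219, 225 and 611) and between cholangiocyte-derived cells and hepatocytes (0.512, 0.133 and 0.225 for 118, 225 and 611), which was taken as pairing. Hepatocyte-derived cells and hepatocytes (0.129, 0.021 and 0.193) were not taken as paired. Among libraries matched by number, differently numbered ones reached 0.202 between the ductal groups. Between cholangiocyte-derived 219 and hepatocytes 225 and 248 they reached 0.458 and 0.417, so pairing there is uncertain. Both libraries numbered 118 were rich in other cells' transcripts. Pairing entered only as the block, not in the reported fit. Where a fold change is given, it is on the log2(RPKM + 1) scale unless called a ratio of means.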

Additional observations from a re-analysis of the deposited data

Results flagged for a closer look

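In 13 of 111 groups of libraries, taken over the 37 members named here, 1 library of a member lay apart from the rest of its group by more than Dixon's limit; chance flags about 1 group in 20. Of the 13, 5 were hepatocyte library 118, the one rich in macrophage transcripts. There Foxj1 was at 1.23 RPKM against 0.27 to 0.37 in the other hepatocytes, Ift27 at 13.56 against 8.98 to 9.25, and Arl3 at 28.8 against 17.87 to 19.66. In the same library Rfx3 was low at 0.24 against 0.65 to 0.71, and Nphp4 was at 0.03 where the others were listed at 0. The part of the macrophage transcripts in these values was not tested.

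Among hepatocyte-derived ductal libraries, number 219 was high for Ift52 (30.38 against 25.55 to 26.39 RPKM) and Ift74 (23.68 against 19.17 to 20.13). Library 220 was low for Ift88 (9.96 against up to 12.81) and Tmem67 (5.62 against 7.33 to 7.98). Library 611 was low for Ift140 (7.08 against 8.15 to 8.36) and high for Arl6 (19.25 against 14.37 to 15.62). Library 225 was high for Tctn3 (9.26 against 7.77 to 8.12). Of the cholangiocyte-derived libraries, 611 was high for Kif3b (21.23 against 18.09 to 18.91).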

How the results depend on the processing

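Against hepatocytes the calls moved with the scaling of the libraries. The members called lower went from 0 to 3 after rescaling and 4 under quantile normalization in hepatocyte-derived cells, and from 1 to 4 and 6 in cholangiocyte-derived cells, where the count was 0 when only the 2 groups were fitted, with the replicate block, without the 3 libraries rich in other cells' transcripts, and with both. Among the members named here, directions turned after rescaling and under quantile normalization, respectively, in hepatocyte-derived cells for Bbs5 (-0.12, -0.41) and Bbs7 (-0.24, -0.49), for Ift52 after rescaling only (-0.23) and for Bbs10 under quantile normalization only (-0.38). In cholangiocyte-derived cells they turned for Ift46 (-0.30, -0.32), Ift52 (-0.25, -0.009) and Bbs7 (-0.30, -0.67), and under quantile normalization only for Rfx3 (-0.26) and Bbs5 (-0.30); Bbs10, not called there as deposited (0.25), was at -0.33 and -1.06. Between the ductal groups 1 member was called higher, and 3 with a pseudocount of 5, 3 with library weights, 3 under quantile normalization, 2 after rescaling and 2 with the block without the 3 libraries. As lower, 14 members were called, and 22 with library weights. With these weights the calls over all 12638 symbols rose too, from 2657 to 3924 lower and from 1913 to 2987 higher. The cause was not tested. Leaving out single libraries gave 38 higher and 0 to 1 lower in hepatocyte-derived cells, 37 to 38 higher and 0 to 1 lower in cholangiocyte-derived cells, and 0 to 3 higher and 13 to 19 lower between them; Bbs1 lost its call between them under quantile normalization (-0.28, adjusted p = 0.101). The replicate block changed no call of a named member other than those given for Ift20, Foxj1, Cep290 and Rpgrip1l. Values near 0 RPKM (Nphp4 and Kif17 in hepatocytes) are limited by depth.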

Other observations

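Of 8 cilium disassembly genes, 5 were higher and 3 lower than in hepatocytes in hepatocyte-derived ductal cells, 5 and 1 in cholangiocyte-derived ones, beside 66.2% and 67.1% of all symbols higher. After rescaling these counts were 3 and 3, then 4 and 2, and under quantile normalization 2 and 4, then 3 and 5, so their balance depended on the scaling. Of the 8, 2 reached the filter only with ductal libraries counted. As deposited the other 6 gave 3 higher and 3 lower, then 3 and 1. Between the ductal groups 5 were lower and 0 higher in hepatocyte-derived cells, beside 21.0% of all symbols lower (6 and 0 at an unadjusted p under 0.05, limma), and 4 of the 7 that reach the filter also without the cholangiocyte-derived libraries. Trpv4, one of the 5, was counted in this list although it is a cation channel that senses osmolarity in the cholangiocyte cilium. It was at 3.54 ± 1.204, 22.1 ± 4.29 and 1.39 ± 0.532 RPKM in hepatocyte-derived, cholangiocyte-derived and hepatocyte libraries (SD, n = 5, 5 and 4). Its 2 ductal groups did not overlap (log2 difference -2.36, SE 0.18, limma adjusted p = 1.54e-07). Kif24, a kinesin that restrains cilium assembly, differed by -0.49 and passed the filter only through the cholangiocyte-derived libraries, so no test is given, while the scaffold Nedd9 (-0.29, adjusted p = 0.0674) and the microtubule depolymerase Kif2a (-0.079, adjusted p = 0.529) were not called. The other 3 lower genes, named after their values were seen, were the mitotic kinases Plk1 (-1.37), Nek2 (-1.17) and Aurka (-0.78), all 3 of which were also lower in hepatocyte-derived cells than in hepatocytes (-1.11, -1.88 and -0.82).

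Of 12 genes of Hedgehog signalling, which vertebrate cells relay through the cilium, 5 passed the filter. Smo, the signal transducer that enters the cilium, was at 36.5 ± 2.16 and 35.2 ± 2.65 RPKM in the ductal groups and 1.32 ± 0.395 in hepatocytes (4.03 and 3.98), with a difference of 0.050 between the ductal groups (95% interval -0.15 to 0.25). Sufu, an inhibitor of the GLI factors, rose by 2.03 and 2.03. Kif7, a kinesin of the cilium tip, rose by 1.16 and 1.44. The ligand gene Ihh was lower than in hepatocytes (-1.41 and -0.75). Between the ductal groups Kif7 (-0.27) and Ihh (-0.66) were called lower in hepatocyte-derived cells, 1 of the 2 with the replicate block; Kif7 was -0.24 after rescaling (adjusted p = 0.103) and 0.065 under quantile normalization. The GLI transcription factors Gli1, Gli2 and Gli3, named after their values were seen, averaged at most 0.216 RPKM in any group.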
